A study of Mus musculus with 17 samples.

Results

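A set of 34 genes of fatty acid oxidation, ketone body metabolism and the targets of the peroxisome proliferator-activated receptors (PPARs) was examined in the mouse colon. The members were picked by symbol, and each of the 34 matched 1 of the 23719 entries of the deposited count table. RNA was sequenced from colon explants of 17 male C57BL/6 mice, all 32 to 34 weeks old when treated. The GWI group (8 mice), a model of Gulf War Illness, drank water with pyridostigmine bromide (PB), an acetylcholinesterase inhibitor, at 2 mg/kg for 7 days and was then kept for 21 days without it, while the control group (9 mice) drank water without PB. Tissue was collected at day 30, a day that the periods of exposure and recovery do not add up to, and the comparison asks which transcripts of the colon differed after the exposure had ended. PB was the only agent given. The total count was 16744096 to 20741212 per control colon and 16293537 to 18389686 per GWI colon. Levels are given as CPM, the counts of a gene relative to a library size scaled by edgeR's TMM method, and a positive log2 fold change is higher in GWI colons. A gene was called when its p-value from edgeR's quasi-likelihood test was under 0.05 after Benjamini-Hochberg adjustment across the 14146 genes tested.

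Long-chain fatty acids enter mitochondria as carnitine esters, and a repeated cycle of dehydrogenation, hydration and thiolysis then shortens the chain, with the electrons passed through the electron transfer flavoprotein to the respiratory chain. Cells that line the colon are known to draw much of their energy from butyrate, a short-chain fatty acid of bacterial origin that monocarboxylate transporters carry into the cell, and they can turn the resulting acetyl-CoA into ketone bodies. PPARs are nuclear receptors that bind fatty acids and, paired with a retinoid X receptor, control many genes of these routes.

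Several libraries stood apart before any group was compared. The median Pearson correlation of a library with the others of its group, taken across the tested genes, which are not independent replicates, was 0.932 for Control replicate 1 and 0.923 for Control replicate 9, against 0.958 to 0.969 for the other control mice. GWI replicate 5 had 0.957, against 0.975 to 0.983 for the other GWI mice. Control replicate 1 was the lowest of the 17 mice for 18 of the 34 members. Control replicate 9 was the lowest for 8 and the highest for 9, and its 10 most abundant genes took 23.1% of its counts, against 9.72% to 17.3% in the other controls. The summed level of 6 Hox genes that mark the most posterior part of the body axis was 129.6 CPM in Control replicate 1 and 89.1 CPM in GWI replicate 5. The same sum was 15.3 to 45 CPM in the other controls and 9.45 to 21.4 CPM in the other GWI mice, so 1 mouse of each group held far more of it than its group, and these were also mice with low values for many members. The part that these libraries play in each result was not tested beyond leaving them out.

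The tissue label was checked against defining markers. The 14 markers of colon epithelium and the 8 of goblet cells all had counts. The most abundant epithelial marker was Car1, a carbonic anhydrase of colonocytes, at a mean of 12478 CPM in control and 11963 CPM in GWI colons. Markers of small intestine enterocytes summed to 458 to 1733 CPM in controls, highest in Control replicate 7, and to 480.0 to 1193 CPM in GWI colons, and the 6 liver markers summed to 139 CPM in Control replicate 7, to 32.1 CPM in Control replicate 6 and to 2.25 to 6.83 CPM in the other 15 mice.

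Of the 34 members, 10 were higher and 1 was lower in GWI colons, and 23 were not called. Over all tested genes, 26.8% were called, 13.4% higher and 13.5% lower. The median log2 fold change was 0.27 over the members, with 24 above and 10 below 0, and -0.06 over all tested genes, with 6340 above and 7806 below. Without Control replicates 1 and 9, in a fit added after the data were seen, these medians were 0.17 and -0.04. The members called higher were Cpt1a, Cpt2, Acadvl, Acads, Hadha, Etfdh, Ehhadh, Pparg, Pdk4 and Plin2, and the member called lower was Etfb. The samples are whole tissue, in which fewer cells of a type and less RNA per cell cannot be told apart. For 1 member, Hadha, all 8 GWI colons lay above all 9 controls, which held for 1.83% of the tested genes. For 0 members did they all lie below, against 0.523% of the tested genes. By the threshold in the methods of the study, taken here as an unadjusted p-value under 0.05 with a log2 fold change beyond 1 in size, 1 member was higher (Pdk4) and 0 were lower, against 0.65% and 1.77% of the tested genes. At an unadjusted p-value under 0.05 alone, edgeR gave 14 members higher and 2 lower, against 19.3% and 22.1% of the tested genes, and DESeq2 and limma-voom each gave 0 members lower past the threshold of the study.

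The calls of Hadha and Pdk4 were present in all 28 other fits that were run, and those of Cpt1a, Acads and Ehhadh in 27. The number of members called higher depended on single mice. It was 5 without GWI replicate 6 and 6 without GWI replicate 7 or without Control replicate 7, when the number over all tested genes, 1889 with all mice, was 1521, 1472 and 1699. The number called lower was 0 without GWI replicate 4 and 2 without Control replicate 1, and over all tested genes, 1903 with all mice, it was 1349 and 2295. With other scalings and filters, the call of Pparg was lost with DESeq2 size factors, those of Cpt2, Acadvl, Acads, Pparg and Plin2 with library size alone, those of Acadvl, Pparg and Plin2 without a filter on low counts, and those of Pparg and Plin2 with at least 10 counts in every mouse. With a replicate block, which leaves out Control replicate 9, the calls of Cpt2, Acadvl, Etfb, Pparg and Plin2 were lost, and with the tissue covariate described below, the calls of Cpt1a, Cpt2, Acadvl, Etfb, Etfdh, Ehhadh and Pparg were lost. The number past the threshold of the study was 2 without Control replicate 2 or without GWI replicate 5, when Angptl4 joined Pdk4; over all tested genes, 92 with all mice, the number higher past it was 98 and 104. In fits added after the data were seen, 10 members were higher and 2 lower without Control replicates 1 and 9, 14 and 2 without Control replicate 1 and GWI replicate 5, and 15 and 2 without all 3. The corresponding numbers over all tested genes were 2786 and 2778, 2467 and 2477, and 2897 and 3073.

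**Figure D1:**
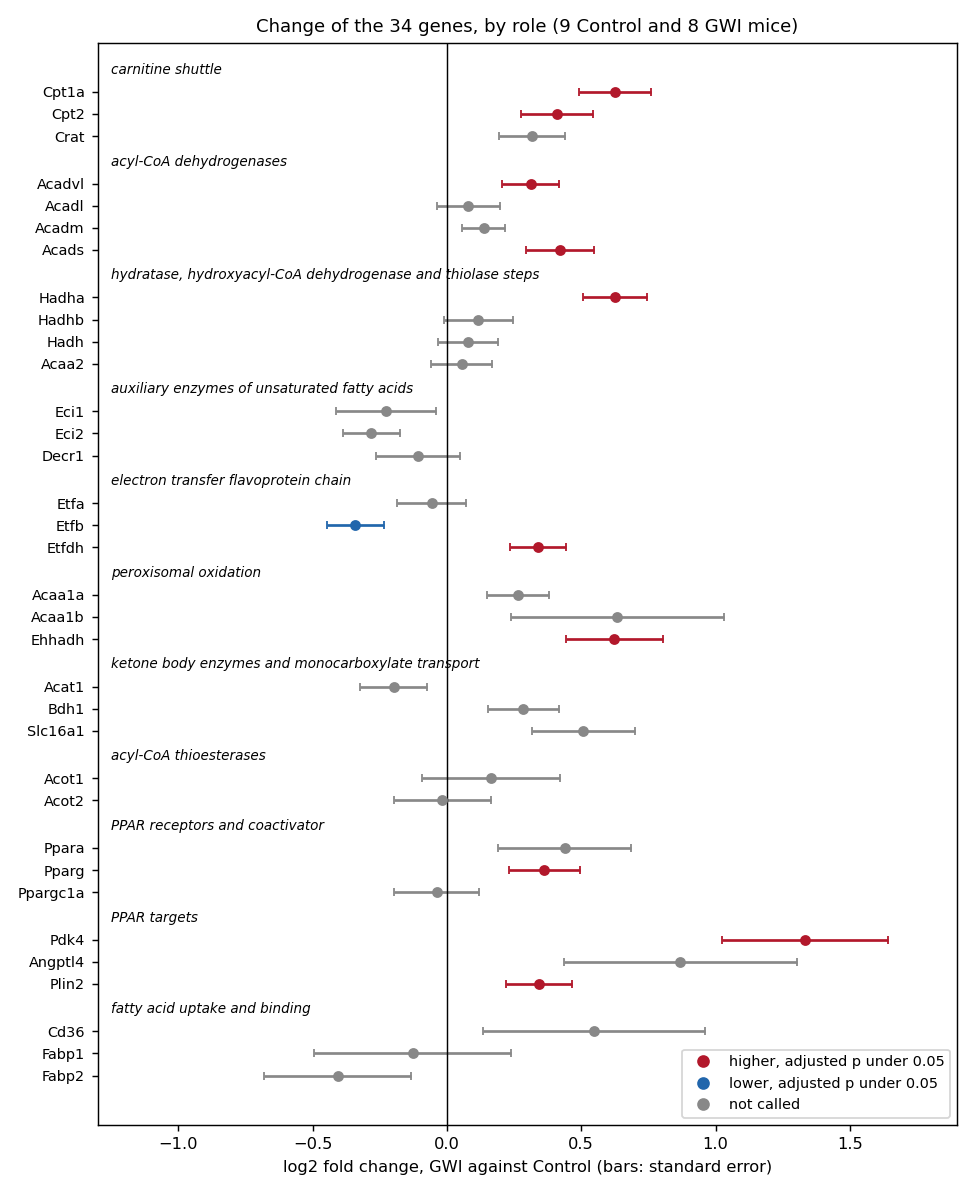
Log2 fold change of GWI against control colons (horizontal axis) for each of the 34 genes, grouped by role; points are the fitted values and bars the standard errors, with genes called higher in red, lower in blue and not called in grey. The 10 genes called higher are spread over 7 of the 11 roles, and the 1 called lower, Etfb, stands beside Etfdh, which was higher.

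The carnitine shuttle brings long-chain acyl groups into mitochondria, and its outer enzyme Cpt1a is the main point of control of the pathway. Cpt1a (ENSMUSG00000024900.5, chromosome 19, 3322334 to 3385733) was at 201 to 374 CPM in control colons, with a median of 252, and at 239 to 476 CPM in GWI colons, with a median of 423. Of the GWI mice, 6 of 8 lay above all controls, replicate 8 lay below Control replicate 2 alone, and replicate 5 lay among the other controls. The mean was 399.8 ± 76.9 CPM (SD, n = 8) in GWI against 259 ± 47.5 CPM (SD, n = 9) in control colons, a log2 fold change of 0.62 (SE 0.13, edgeR adjusted p = 0.00422). Cpt2, the inner-membrane enzyme that regenerates acyl-CoA, ranged from 66.4 to 125 CPM (median 83.7) in controls and from 98.2 to 144 CPM (median 118) in GWI colons. The groups overlapped, with all 8 GWI mice above the control median and 2 above the highest control, Control replicate 2. The log2 fold change of Cpt2 was 0.41 (SE 0.13, edgeR adjusted p = 0.0305). It was 0.26 to 0.49 over the 8 alternatives with another tool, scaling, filter or term. The call was lost without Control replicate 7, GWI replicate 6 or GWI replicate 7 (edgeR adjusted p 0.0525, 0.0663 and 0.0648) and without Control replicates 1 and 9 (0.0543). Crat, which exchanges short acyl groups between carnitine and CoA, had a log2 fold change of 0.32 (SE 0.12, edgeR adjusted p = 0.0607) and was not called. Its lowest value, 31.2 CPM, was that of Control replicate 9, and it was called by DESeq2 and by limma-voom (adjusted p 0.0445 and 0.0236) and when Control replicate 1, Control replicate 4, Control replicate 9 or GWI replicate 1 was left out (adjusted p 0.0369 to 0.0486). The other fits that left out 1 mouse did not call Crat (edgeR adjusted p up to 0.112, without GWI replicate 7).

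The acyl-CoA dehydrogenases open each turn of the cycle and differ in the chain length they accept. Acads, for short chains such as butyrate, was at 105 to 241 CPM (median 189) in control and at 221 to 296 CPM (median 253) in GWI colons. All GWI mice were above the control median and 6 of 8 above the highest control, while the lowest control was replicate 9. Acads had a log2 fold change of 0.42 (SE 0.13, edgeR adjusted p = 0.0214), 0.30 without Control replicates 1 and 9 (adjusted p = 0.0093) and 0.39 with library size alone, when the call was lost (adjusted p = 0.0729). Acadvl, for very long chains, ranged from 132 to 209.8 CPM (median 175) in control and from 173 to 256 CPM (median 215) in GWI colons, and 5 of 8 GWI mice lay above all controls. The Acadvl log2 fold change of 0.31 (SE 0.11, edgeR adjusted p = 0.0368) was no longer called when Control replicate 1, 3, 6, 7 or 8 or GWI replicate 2, 3, 4, 6 or 7 was left out (adjusted p 0.0504 to 0.0798). Acadm and Acadl, for medium and long chains, were not called, with log2 fold changes of 0.14 (SE 0.08) and 0.08 (SE 0.12). Leaving out 1 mouse gave 0.11 to 0.17 for Acadm and 0.03 to 0.14 for Acadl. The groups overlapped for both, with 3 GWI mice above all controls for Acadm and none of the 8 for Acadl.

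Hadha and Hadhb encode the α and β subunits of the mitochondrial trifunctional protein, which carries out the later steps of the cycle on long chains. Hadha (ENSMUSG00000025745.12, chromosome 5, 30118304 to 30155162) was at 161 to 327 CPM (median 286) in control colons and at 345 to 499.7 CPM (median 430.3) in GWI colons. The groups did not overlap: the lowest GWI value was that of replicate 5, and Control replicate 9, at 161 CPM, lay far below the other controls, which began at 279 CPM. The log2 fold change was 0.63 (SE 0.12, edgeR adjusted p = 0.00216), and 0.56 without Control replicate 9 (adjusted p = 0.000544). Hadhb (ENSMUSG00000059447.13, chromosome 5, 30155248 to 30184593) ranged from 147 to 322 CPM (median 202) in control and from 171 to 260.3 CPM (median 223) in GWI colons. Here Control replicate 9 was the highest mouse, no GWI mouse lay above it, and 7 of 8 GWI mice lay above the control median. Hadhb had a log2 fold change of 0.12 (SE 0.13, edgeR adjusted p = 0.506), and 0.23 without Control replicate 9 (adjusted p = 0.0816). Hadhb was called by limma-voom with quality weights (0.23, adjusted p = 0.0139) and, in a fit added after the data were seen, without Control replicates 1 and 9 and GWI replicate 5 (0.21, adjusted p = 0.0272), and its sign turned with the tissue covariate (-0.22, adjusted p = 0.249). The ratio of Hadha to Hadhb CPM was 0.4999 to 1.903 in control mice, with a median of 1.498 and the lowest value in Control replicate 9, and 1.56 to 2.04 in GWI mice, with a median of 1.96. Of the GWI mice, 7 lay above all controls in this ratio and replicate 8 lay among them; the ratio was formed after the values were seen and was not tested. Hadh, the dehydrogenase for shorter chains, and Acaa2, the mitochondrial thiolase, were not called, at log2 fold changes of 0.08 (SE 0.11) and 0.05 (SE 0.11), and both were lowest in Control replicate 1, without which the log2 fold changes were 0.02 and -0.0025.

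The auxiliary enzymes Eci1, Eci2 and Decr1 move or reduce the double bonds of unsaturated fatty acids so that the cycle can continue. By edgeR 0 of the 3 were called and 1, Eci2, was lower at an unadjusted p-value under 0.05, while DESeq2 called 0 and limma-voom called Eci2 (adjusted p = 0.00962). The log2 fold changes of Eci1, Eci2 and Decr1 were -0.23 (SE 0.19), -0.28 (SE 0.11) and -0.11 (SE 0.16). That of Eci1 was -0.09 without Control replicate 9 and -0.14 without GWI replicate 5, but -0.58 with the tissue covariate (adjusted p = 0.0663). For Eci1 and Eci2, all 8 GWI mice lay below the control median. Eci2 was at 54.5 to 105 CPM in control and 49.8 to 75.3 CPM in GWI colons, with the lowest control in replicate 1 and the lowest GWI mouse in replicate 5. It was called lower without Control replicate 1 (log2 fold change -0.33, edgeR adjusted p = 0.0082), against an adjusted p of 0.0596 with all mice and 0.102 without GWI replicate 5. Decr1 was highest in Control replicate 9 at 225 CPM, and its sign turned to 0.06 without that mouse, while it was -0.47 with the tissue covariate (adjusted p = 0.0529).

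The electron transfer flavoprotein, a dimer of Etfa and Etfb, hands the electrons of the dehydrogenases to Etfdh in the inner membrane. The calls of this relay differed between its members. Etfb (ENSMUSG00000004610.4, chromosome 7, 43444083 to 43457800) was at 62.2 to 114 CPM (median 90.9) in control and at 62.6 to 90.3 CPM (median 69.8) in GWI colons, and all 8 GWI mice lay below the control median. The groups overlapped: Control replicate 1 was the lowest of the 17 mice, and GWI replicate 8 lay near the control median. Its log2 fold change was -0.34 (SE 0.11, edgeR adjusted p = 0.0244), -0.39 without Control replicate 1 (adjusted p = 0.00396) and -0.31 without GWI replicate 4, when the call was lost (adjusted p = 0.0532). Etfdh ranged from 69.5 to 116 CPM (median 85.1) in control and from 84 to 123 CPM (median 115) in GWI colons. Of the GWI mice, 4 lay above all controls, replicates 1 and 4 lay below Control replicate 9 alone, and replicates 5 and 8 lay among the other controls. For Etfdh, a log2 fold change of 0.34 (SE 0.10, edgeR adjusted p = 0.0236) was not called without GWI replicate 6 (adjusted p = 0.0505) or with the tissue covariate, when it was 0.02 (adjusted p = 0.912). Etfa, at 237 to 491 CPM in control and 257 to 359 CPM in GWI colons, was highest in Control replicate 9, and its log2 fold change of -0.06 (SE 0.13) became 0.06 without that mouse. The ratio of Etfa to Etfb CPM was 2.70 to 5.34 in control mice (median 3.25) and 3.00 to 4.69 in GWI mice (median 4.48), so the ranges overlapped. The highest control was replicate 9, and the next was replicate 1 at 3.82. Among GWI mice, only replicates 5 and 8, at 3.68 and 3.00, lay below Control replicate 1.

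**Figure D2:**
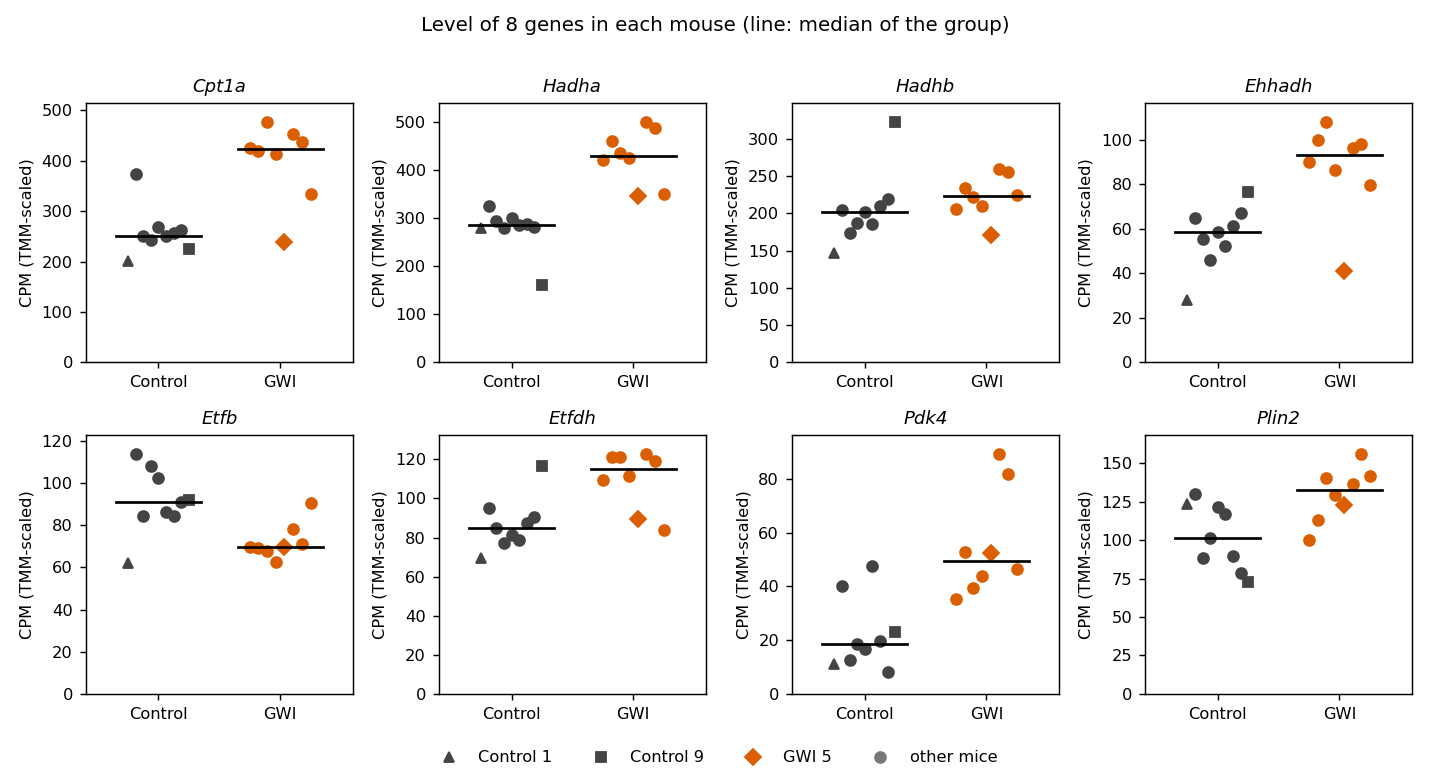
Level of 8 of the genes in each mouse (vertical axis, CPM from 0; groups on the horizontal axis), with the group median as a line and Control replicates 1 and 9 and GWI replicate 5 given their own symbols. For Hadha the groups do not overlap, and for Cpt1a and Ehhadh GWI replicate 5 is the lowest GWI mouse and lies among the controls.

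Peroxisomes shorten very long chains, and the members here were Ehhadh, whose product carries out the hydratase and dehydrogenase steps, and the thiolases Acaa1a and Acaa1b. Ehhadh (ENSMUSG00000022853.7, chromosome 16, 21761287 to 21787807) was at 28 to 76.7 CPM (median 58.6) in control and at 41.2 to 108 CPM (median 93.1) in GWI colons. Of the GWI mice, 7 lay above all controls, and replicate 5 lay below the control median; Control replicate 1 was the lowest mouse. The log2 fold change was 0.62 (SE 0.18, edgeR adjusted p = 0.018), and 0.64 without Control replicate 1 and GWI replicate 5 (adjusted p = 0.000328), but 0.22 with the tissue covariate, when the call was lost (adjusted p = 0.494). Acaa1a was not called (log2 fold change 0.26, SE 0.11, edgeR adjusted p = 0.0904) but was called without Control replicate 2 (adjusted p = 0.0487). Without GWI replicate 6 its edgeR adjusted p was 0.155. Acaa1b ranged from 1.64 to 34.3 CPM in control and from 9.33 to 51.9 CPM in GWI colons. It was lowest in Control replicate 1 and GWI replicate 5 within their groups and above all controls in 5 of 8 GWI mice. Its log2 fold change of 0.63 (SE 0.40, edgeR adjusted p = 0.233) was 0.62 without these 2 mice (adjusted p = 0.0408). Of the 17 fits that left out 1 mouse, 0 called Acaa1b (edgeR adjusted p up to 0.36, without GWI replicate 7).

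By edgeR 0 of the 3 members of ketone body metabolism and monocarboxylate transport were called and 2 were higher at an unadjusted p-value under 0.05, while DESeq2 and limma-voom each called 1, Slc16a1 (adjusted p 0.0396 and 0.00757). Slc16a1, the transporter MCT1 that carries butyrate, lactate and ketone bodies, was at 182 to 374 CPM (median 284) in control and at 214 to 595 CPM (median 381) in GWI colons. The groups overlapped, with 4 GWI mice above all controls and GWI replicate 1 below the control median. Its log2 fold change of 0.51 (SE 0.19, edgeR adjusted p = 0.0566) was called without Control replicate 1, Control replicate 9, GWI replicate 1 or GWI replicate 8 (adjusted p 0.0232 to 0.0441). Without GWI replicate 6 the edgeR adjusted p was 0.130. Slc16a1 was called in 3 of the 8 alternatives, over which the adjusted p was up to 0.348. Bdh1, which interconverts the ketone bodies acetoacetate and 3-hydroxybutyrate, had a log2 fold change of 0.28 (SE 0.13, edgeR adjusted p = 0.109). Acat1, the mitochondrial acetoacetyl-CoA thiolase, had one of -0.20 (SE 0.13, edgeR adjusted p = 0.241) and was highest in Control replicate 9, without which it was -0.10. The acyl-CoA thioesterases Acot1, of the cytosol, and Acot2, of mitochondria, were at 1.33 to 10.1 and 4.80 to 13.4 CPM over the 17 mice, lowest in Control replicate 1 for both, and their log2 fold changes were 0.16 (SE 0.26) and -0.02 (SE 0.18), or 0.04 and -0.10 without that mouse.

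Of the receptors, Pparg, a PPAR prominent in both adipocytes and colon epithelium, was at 96.8 to 192 CPM (median 156) in control and at 135 to 234 CPM (median 191) in GWI colons. The groups overlapped, with 4 GWI mice above all controls and the lowest mice being Control replicate 1 and, within the GWI group, replicate 5. Its log2 fold change was 0.36 (SE 0.13, edgeR adjusted p = 0.0488), close to the threshold. The call was lost when any of Control replicates 3, 4, 6, 7 and 8 or GWI replicates 1, 2, 3, 4, 6, 7 and 8 was left out (adjusted p 0.0536 to 0.0985), and in 6 of the 8 alternatives with another tool, scaling, filter or term (up to 0.612, with the tissue covariate). Ppara, the receptor best known from fatty acid oxidation in liver, ranged from 6.06 to 27.8 CPM (median 20.1) in control and from 10.6 to 35 CPM (median 30.3) in GWI colons. The low ends were again Control replicate 1 and GWI replicate 5, and 5 of 8 GWI mice lay above all controls. The log2 fold change of 0.44 (SE 0.25, edgeR adjusted p = 0.187) was 0.44 without these 2 mice (adjusted p = 0.0144), and limma-voom called it with all mice (adjusted p = 0.00718), but it was 0.04 with the tissue covariate (adjusted p = 0.943). Ppargc1a, a coactivator of mitochondrial genes, was at 22 to 55.3 CPM over the 17 mice and had a log2 fold change of -0.04 (SE 0.16).

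Pdk4 had the largest called fold change of the 34 genes. Its product, a kinase that inhibits pyruvate dehydrogenase, spares glucose when fatty acids are burned. Pdk4 (ENSMUSG00000019577.6, chromosome 6, 5483351 to 5496309) was at 8.10 to 47.6 CPM (median 18.5) in control colons and at 35.5 to 89.4 CPM (median 49.6) in GWI colons. All GWI mice lay above the control median and the groups overlapped through Control replicates 2 and 6, at 40.0 and 47.6 CPM, while GWI replicates 6 and 7 were the highest mice. The log2 fold change was 1.33 (SE 0.31, edgeR adjusted p = 0.00615). It was 1.24 without Control replicates 1 and 9 and GWI replicate 5 (adjusted p = 0.011). Plin2, which coats lipid droplets, was at 72.7 to 130.2 CPM (median 101) in control and at 100.1 to 156 CPM (median 133) in GWI colons, and 4 GWI mice lay above all controls. The call of Plin2, at a log2 fold change of 0.34 (SE 0.12, edgeR adjusted p = 0.0478), was lost when any of Control replicates 3, 4, 5, 7, 8 and 9 or GWI replicates 3, 4, 5, 6, 7 and 8 was left out (adjusted p 0.0521 to 0.0987), and in 4 of the 8 alternatives (up to 0.148, with the replicate block). Angptl4, a secreted inhibitor of lipoprotein lipase, ranged from 0.632 to 10.3 CPM in control and from 1.01 to 15.4 CPM in GWI colons. Control replicate 2 was the highest control and GWI replicate 5 the lowest GWI mouse. The log2 fold change of 0.87 (SE 0.43, edgeR adjusted p = 0.136) was 1.04 without GWI replicate 5 (adjusted p = 0.0453). That was the 1 call among the 17 fits that left out 1 mouse. These fits gave 0.68 to 1.12 (edgeR adjusted p up to 0.27, without GWI replicate 7), and 0 of the 8 alternatives called Angptl4.

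By edgeR, DESeq2 and limma-voom alike, 0 of the 3 genes of fatty acid uptake and binding were called, and 0 had an unadjusted p-value under 0.05. Cd36, a fatty acid translocase, was at 8.41 to 47.7 CPM in control and 9 to 111 CPM in GWI colons, and its log2 fold change of 0.55 (SE 0.41) was 0.11 without GWI replicate 7, the highest mouse. The 10 adipocyte markers summed to 1329 CPM in the same mouse and to 93.8 to 594 CPM in the other 16. GWI replicate 7 was also the highest mouse for Angptl4 (15.4 CPM), Plin2 (156 CPM) and the further genes Gpd1 (189 CPM) and Pnpla2 (198 CPM). Pdk4 and Pparg were highest in GWI replicate 6. The part of adipocytes in the values of Cd36 and these genes was not tested. Fabp2, the intestinal fatty acid binding protein, was at 556 to 2334 CPM in control, highest in Control replicate 9, and at 329 to 939 CPM in GWI colons (log2 fold change -0.41, SE 0.27, and -0.08 without Control replicate 9). Fabp1, the liver form, had only 2 to 21 counts per mouse and was not called (log2 fold change -0.13, SE 0.37). The part of the low counts in this was not tested.

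**Figure D3:**
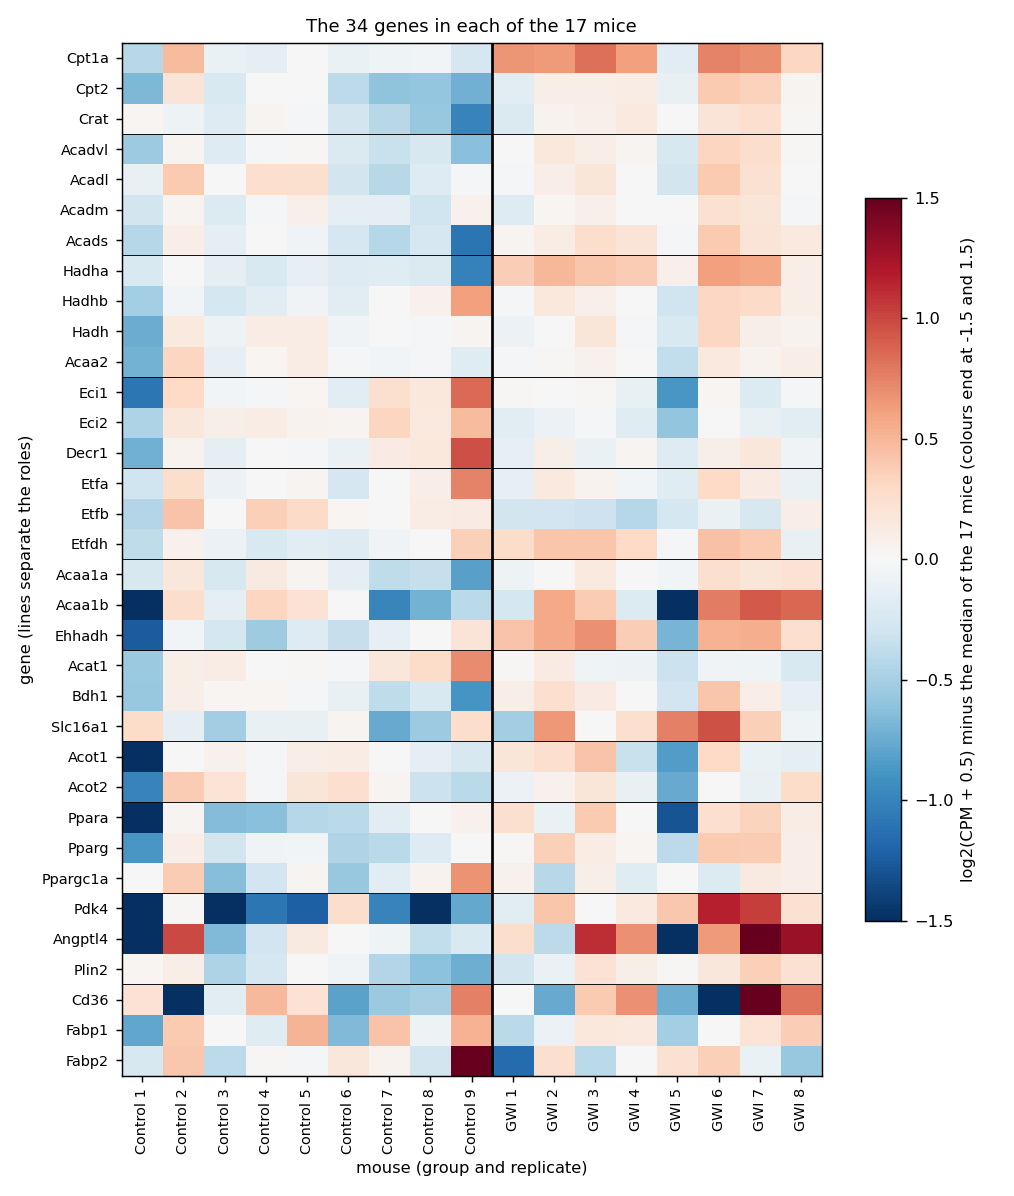
Each of the 34 genes (rows, by role) in each of the 17 mice (columns), coloured by log2 level relative to the median of the 17 mice, red above and blue below. Control replicate 1 is low for most genes, Control replicate 9 is low for some and high for others, and GWI replicate 6 is the highest mouse for 12 genes.

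Levels were compared between genes per kilobase of annotated exon. On this scale Fabp2 was the most abundant member in control colons, at a median of 765 CPM per kilobase, followed by Etfa at 159 and Acaa2 at 135, whose control ranges of 129 to 267 and 83.5 to 171 overlapped. Cpt1a was at 32.9, Hadha at 32.8 and Hadhb at 30.6 CPM per kilobase. The members with the lowest levels were Acot1 at 1.89, Angptl4 at 1.16 and Fabp1 at 1.03 CPM per kilobase, and Pdk4, at 5.27, was ranked 28 of 34.

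The genes lie on 16 chromosomes, with 5 each on chromosomes 3 and 5. Hadha and Hadhb are arranged head to head, with annotated starts 86 bases apart on chromosome 5. The 85 bases between the starts are shown because the genes on either side of them differed in their edgeR call with all mice. The sequence is from RefSeq, build GRCm38.p6, chr5:30155163-30155247, plus strand, 69.4% G or C, all in lower case because it holds no match to the motif described next.
Hadha-Hadhb interval: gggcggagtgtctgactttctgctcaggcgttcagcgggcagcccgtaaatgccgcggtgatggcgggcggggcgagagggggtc

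PPARs bind direct repeats of AGGTCA with a spacer of 1 base. The 250 bases before each RefSeq start were searched on both strands for this repeat, with up to 2 mismatches in its 12 fixed letters; windows were available for 29 of the 34 members. Of these, 4 held a match (13.8%), against 3.72% of the 27025 genes with windows. Read on the strand of the match, Etfa had AGGGCAAAGGTAA, Plin2 AGGTCAGGGGTCC, Cd36 AAGTCAGAGGCCA and Fabp1 AGGCCATAGGTCA. Of the 4, Plin2 was called higher in GWI colons and the others were not called, and 9 of the 10 members called higher had no match in the windows searched. The Plin2 window is shown as the one match upstream of a called member, without the base that lies in an annotated exon; it is from RefSeq, build GRCm38.p6, chr4:86670061-86670309, minus strand, with the match in capitals as it reads on the gene's strand.
Plin2 window: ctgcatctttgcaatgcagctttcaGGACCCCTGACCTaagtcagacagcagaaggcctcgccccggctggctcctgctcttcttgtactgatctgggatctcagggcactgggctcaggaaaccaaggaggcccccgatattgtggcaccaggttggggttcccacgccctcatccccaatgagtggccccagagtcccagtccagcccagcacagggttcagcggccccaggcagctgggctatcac

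Some members share sequence with other genes, and their counts are uncertain to that extent. Of the 75-base stretches in their transcripts, Acot2 shared 20.5% with Acot1, Acot1 shared 11.2% with Acot2, and Acaa1b and Acaa1a shared 24.4% and 9.50% with each other. Hadhb shared 16.4% with the pseudogene Gm13910. In the GENCODE M21 annotation, 58.2% of the exon length of Etfb lies under exons of other entries on the same strand. For Acadvl, 42.9% lies under exons of Dvl2 on the opposite strand. Of the 2 entries over Etfb, Mir7051 had 0 to 6 counts per mouse, and Gm45233 was not among the overlapping genes found in the count table. Dvl2 had 177 to 500 counts per mouse. The annotation release and the strand setting of the counting are not given in the sources used here, so how such reads were assigned was not tested.

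A list of 110 further genes of the same routes was examined, of which 109 were in the table and 94 were tested. Of these, 25 were higher and 8 lower, with a median log2 fold change of 0.16, against 13.4% higher, 13.5% lower and a median of -0.06 over all tested genes. In mitochondrial oxidation, 6 of 26 tested genes were higher and 1 was lower. Slc22a5, the carnitine transporter OCTN2, was at 30.0 to 50.6 CPM in control and at 53.4 to 81.4 CPM in GWI colons, with no overlap (log2 fold change 0.80, SE 0.12, edgeR adjusted p = 0.000648). The acyl-CoA synthetase Acsf2 (1.00) and the acetyl-CoA synthetase Acss1 (0.29) were also higher in log2 fold change, and Acsl6, a long-chain acyl-CoA synthetase, was lower (-0.93), though its sign turned with the tissue covariate described below (0.22, edgeR adjusted p = 0.538). In peroxisomal oxidation, 5 of 16 were higher and 11 were not called. Acox3, which oxidises branched chains, was at 29.5 to 40.8 CPM in control and at 44.1 to 54.3 CPM in GWI colons, with no overlap (log2 fold change 0.55, SE 0.08, edgeR adjusted p = 0.000331). Abcd3, a peroxisomal transporter, had a log2 fold change of 0.64.

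In ketone body metabolism and monocarboxylate transport, 3 of 12 tested genes were higher and 3 lower. Among those higher in log2 fold change were Aacs (0.52), which activates acetoacetate in the cytosol, and Slc5a8 (0.68), a sodium-coupled transporter of butyrate. Lower were Oxct1 (-0.40), which starts the use of ketone bodies for energy, and the low-count genes Bdh2 (-1.10) and Hmgcll1 (-0.84).

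Of 15 tested regulators of PPARs, 5 were higher and 1 was lower. Ppard, the remaining PPAR, was at 40.2 to 164 CPM in control and at 157 to 193 CPM in GWI colons, with 6 of 8 GWI mice above all controls (log2 fold change 0.75, SE 0.17, edgeR adjusted p = 0.00634). Lpin2 (0.93), of the lipin family of phosphatidate phosphatases, and Ncor1 (0.43), a corepressor of nuclear receptors, were higher in log2 fold change without overlap of the groups. The deacetylase Sirt1 was lower (-0.37, and -0.60 to -0.26 over the 8 alternatives with another tool, scaling, filter or term). Of 25 other tested PPAR targets, 6 were higher and 3 lower. Gpd1 (0.75), Retsat (0.64) and the triglyceride lipase Pnpla2 (0.61) were higher in log2 fold change, and the binding proteins Fabp3 (-1.26) and Fabp5 (-0.50) and the lipid droplet protein Hilpda (-0.68) were lower. Over all further genes, the number called lower was 3 without GWI replicate 4, 6 or 7, 4 without Control replicate 4, GWI replicate 2 or GWI replicate 3, and 5 without Control replicate 5. Over all tested genes the number called lower, 1903 with all mice, was 1309 to 1647 in these 7 fits. Calls of 5 of the genes were lost on leaving out single mice, with adjusted p up to the value given: Acsl6 without Control replicates 4 or 6 or GWI replicates 2, 3, 4, 6 or 7 (0.0602), Fabp5 without Control replicates 3, 4, 5 or 8 or GWI replicates 2, 4, 5, 6 or 7 (0.0696) and Hilpda without Control replicates 7, 8 or 9 or GWI replicates 2, 3, 4, 6 or 7 (0.0634). The call of Sirt1 was lost without Control replicates 4, 5, 6 or 7 or GWI replicates 1, 3, 4, 5, 6, 7 or 8 (0.0731), and that of Oxct1 without Control replicates 1, 3, 4, 5, 6 or 9 or GWI replicates 1, 2, 3, 4, 6, 7 or 8 (0.0898).

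Markers of other cell types moved with the groups. Over all tested genes, edgeR called 1889 higher and 1903 lower of 14146, and limma-voom 3911 and 4180 of 14146. DESeq2 called 2198 and 2434 of 19717. Of 10 smooth muscle markers, 7 were lower in GWI colons by edgeR, 9 by DESeq2 and 10 by limma-voom, with a median log2 fold change of -0.91. Their summed level was 3690.1 to 23923 CPM (median 11584) in control and 3658 to 11832 CPM (median 5142) in GWI colons, highest in Control replicate 6 and lowest in GWI replicate 3, and the most abundant was Myh11. Of 14 epithelial markers, 4 were higher by edgeR, 5 by DESeq2 and 9 by limma-voom (median log2 fold change 0.33; summed level 20013 to 40789 CPM in control and 22104 to 40587 CPM in GWI colons). With the difference of these 2 lists in each mouse as a covariate, 6 members were higher and 4 lower, against 1437 and 2054 of the 14146 tested genes, and the median over the members was 0.13, against 0.04 over all tested genes. That difference, in mean log2 CPM of muscle minus epithelium, was -2.04 to -0.56 in GWI and -1.36 to 1.09 in control mice. Only Control replicates 8 and 9 lay within the GWI range, so this fit cannot tell tissue make-up and exposure apart. Members that kept their call were Hadha (0.66, edgeR adjusted p = 0.019), Acads (0.58, 0.0337), Pdk4 (1.59, 0.0263) and Plin2 (0.53, 0.0421). Those that lost it were Cpt1a (0.46, 0.103), Cpt2 (0.49, 0.0905), Acadvl (0.34, 0.132), Etfb (-0.28, 0.166), Ehhadh (0.22, 0.494) and, with the smallest remaining values, Pparg (0.13, 0.612) and Etfdh (0.02, 0.912). Called with the covariate but not without it were Crat (0.53, 0.0394) and Acaa1a (0.47, 0.0438), higher, and Eci2 (-0.49, 0.0173), Etfa (-0.43, 0.0244), Acat1 (-0.49, 0.0236) and Fabp2 (-0.94, 0.0342), lower, each with the log2 fold change and the edgeR adjusted p of that fit. Of the further genes, 14 were higher and 12 lower with the covariate. Besides Acsl6, the named ones that lost their call were Acss1 (0.16, 0.237), Abcd3 (0.45, 0.0512), Aacs (0.58, 0.0564), Slc5a8 (0.17, 0.581), Gpd1 (0.73, 0.106), Retsat (0.40, 0.218), Bdh2 (-0.34, 0.479), Hmgcll1 (-0.16, 0.69), Oxct1 (-0.28, 0.304) and Fabp3 (-0.78, 0.0745), with the values of that fit. With the replicate block the calls of Acss1, Acsl6, Bdh2, Hmgcll1, Oxct1, Sirt1, Retsat, Gpd1 and Hilpda were lost. Among members not called, the covariate also moved the log2 fold changes of Acadm (0.06), Ppargc1a (-0.34), Cd36 (0.20) and Fabp1 (-0.65), and limma-voom those of Acaa1a (0.13), Acaa1b (0.35), Acat1 (-0.10), Bdh1 (0.17), Cd36 (0.27) and Fabp2 (-0.11).

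**Figure D4:**
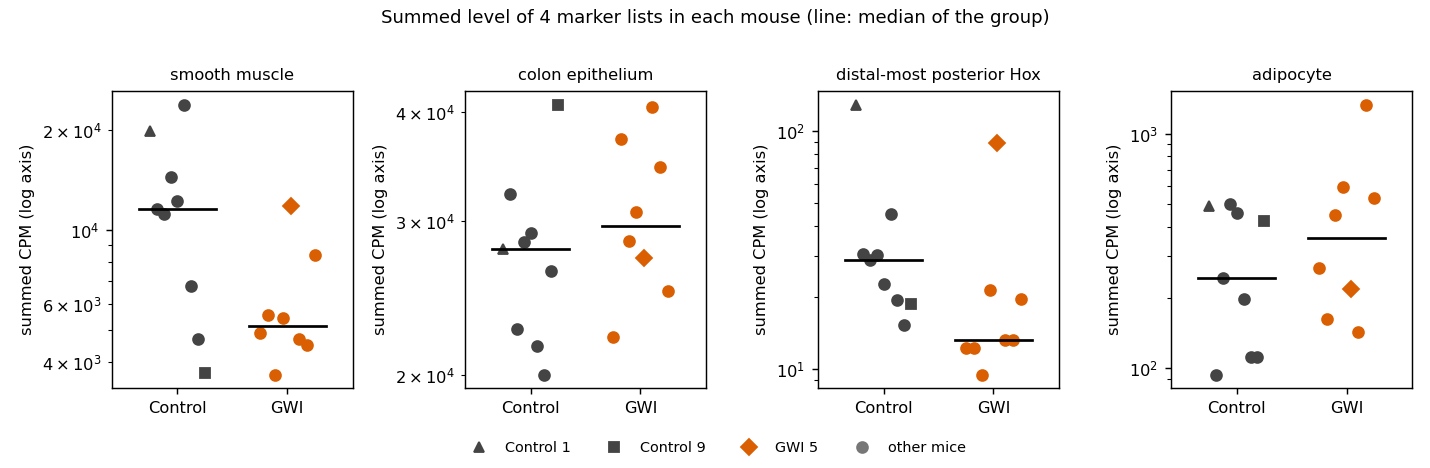
Summed CPM of the markers of smooth muscle, colon epithelium, the most posterior Hox genes and adipocytes in each mouse (vertical axes logarithmic), with the group median as a line. Smooth muscle markers are lower in most GWI mice than in most controls, and Control replicate 1 and GWI replicate 5 have the highest Hox sum of their groups.

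The other marker lists are given by the tested genes called, the median log2 fold change, and the median summed level in control and GWI colons. The tools differ in how many genes they call over the whole table. The number lower was 1903 of 14146 by edgeR, 2434 of 19717 by DESeq2 and 4180 of 14146 by limma-voom. Goblet cell markers had 1 of 8 higher by edgeR and 3 by each of DESeq2 and limma-voom (0.02; 14573 and 18384 CPM; most abundant Muc2), and adipocyte markers 1 of 10 higher and 1 lower (0.94; 241 and 357 CPM; Car3). Of the small intestine enterocyte markers, edgeR called 2 of 7 lower and DESeq2 1, while limma-voom called 0 lower and 1 higher (-0.69; 833 and 1015 CPM; Slc10a2). Of the posterior Hox genes, edgeR called 0 of 5, with 2 lower at an unadjusted p-value under 0.05, while DESeq2 and limma-voom each called 2 lower (-1.04; 28.7 and 13.2 CPM; Hoxa13). Of the endothelial markers, edgeR called 2 of 7 lower, DESeq2 3 and limma-voom 6 (-0.49; 110.5 and 76.9 CPM; Pecam1), and of the macrophage markers 1 of 8, 2 and 6 (-0.35; 56.8 and 43 CPM; C1qa). Of the enteric neuron markers, edgeR called 0 of 8, with 0 at an unadjusted p-value under 0.05, and DESeq2 called 0, while limma-voom called 7 lower (-0.58; 208 and 148 CPM; Uchl1). Enteric glia markers had 1 of 7 higher and 3 lower, or 5 lower by each of DESeq2 and limma-voom (-0.98; 259 and 447 CPM; Erbb3). Erbb3, at a mean of 210 CPM in control and 395 CPM in GWI colons, held most of that sum. The log2 fold change was below 0 for 5 of the 7 glia markers, so the sum does not describe the list. Skeletal muscle markers had 1 of 3 lower (-0.09; 56.8 and 27.9 CPM; Ckm). The 1 liver marker tested had a log2 fold change of -0.50 and was not called by edgeR, DESeq2 or limma-voom. All 6 liver markers together had median summed levels of 3.98 and 3.54 CPM. The most abundant of the 6 was Apoa1, at a mean of 18.4 CPM in control and 0.508 CPM in GWI colons. The 6 markers summed to 139 CPM in Control replicate 7, to 32.1 CPM in Control replicate 6 and to at most 6.83 CPM in the other controls. The control mean of Apoa1 therefore does not describe most controls. Of 17 circadian clock genes, several of which are known to vary over the day together with genes of fatty acid use, 3 were higher and 8 lower (median 0.08; Bhlhe40), and their summed level was 702 to 1102 CPM in control and 714 to 1055 CPM in GWI colons. No listed marker was at 0 in all mice. The part of these cell types and of the clock in the values of the 34 genes was not tested.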

How the data were processed

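The authors selected poly(A) RNA from colon explants, sequenced paired-end reads, trimmed them with Trimmomatic 0.36, mapped them with STAR 2.5.2b to GRCm38 and deposited raw counts of unique gene hits from featureCounts, which are whole numbers without normalization. All 17 columns were matched to mice by the sample names of the labels. The 23719 entries held 23671 symbols, and entries that share a symbol were kept as separate features. Counts were filtered with filterByExpr, scaled by TMM and tested with edgeR 4.0.16 (glmQLFit, robust, and glmQLFTest) in R 4.3.3, with the group as the only term. Each standard error is the size of the log2 fold change divided by the square root of its F value. The study used DESeq2; here DESeq2 1.42.0, limma-voom (limma 3.58.1) with quality weights, 2 other scalings, 2 other filters on low counts (none, and at least 10 counts in every mouse), a replicate block (without Control replicate 9, which has no partner) and a tissue covariate were alternatives, and each of the 17 mice was left out in turn. The scripts were tested on simulated counts. Positions, exon lengths and shared sequence came from GENCODE M21 (GRCm38), computed in Python 3.11.15.

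The 34 members and the lists of other genes and markers were chosen with earlier results of these data known. All members are named. Of each further list, up to 3 called genes per direction, those of lowest p, are named, with Ppard in any case, and of each marker list the most abundant gene. Some genes that this rule takes are not reported here. All 34 members passed the filter on low counts. Total counts of 16293537 to 20741212 per mouse leave little counting error except for genes with few counts, such as Fabp1, and reads that carry no molecular identifier may repeat a molecule. Sample names share first parts whose meaning is not given in the sources used here, so the mice were treated as independent.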

Additional observations from a re-analysis of the deposited data

Results flagged for a closer look

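Within each group, a mouse was singled out when its gap to the nearest other mouse as a share of the range of its group passed the critical value of Dixon's gap test for that number of mice. Of 110 groups examined, over the 34 members and 21 further genes, 23 had such a mouse. Chance gives about 1 in 20 groups when they are independent, and these groups share the same 17 mice. The mice are not spread evenly over these results, and most belong to Control replicate 9, Control replicate 1 or GWI replicate 5.

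Control replicate 9 was far below the other controls for Hadha (161 CPM, others 279 to 327) and far above them for Hadhb (322), Decr1 (225), Etfa (491), Fabp2 (2334) and Sirt1 (43.1 CPM). Control replicate 1 was far below the other controls for Hadh (247) and Acot1 (1.33) and far above them for Oxct1 (366 CPM). GWI replicate 5 was far below the other GWI mice for Acaa2 (160.4), Eci1 (33.6), Eci2 (49.8), Ehhadh (41.2, others 79.7 to 108), Acot2 (5.80), Ppara (10.6, others 24.8 to 35.0) and Retsat (74.9 CPM), and far above them for Oxct1 (260.2 CPM). Thus Oxct1 had its highest value of each group in these 2 mice, which also had the highest summed posterior Hox markers.

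Control replicate 2 was far above the other controls for Cpt1a (374) and Angptl4 (10.3 CPM), and Control replicate 6 for Hmgcll1 (8.59 CPM). In the GWI group, replicate 7 was far above the others for Cd36 (111), replicate 1 for Hilpda (12.9, others 8.04 to 8.55), and replicate 8 far below them for Aacs (81.6 CPM). The part of tissue make-up in these values was not tested.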

How the results depend on the processing

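Hadha and Pdk4 were called by edgeR and in all 28 other fits. The number of members called lower, 1 with edgeR, was 2 with limma-voom, with at least 10 counts in every mouse and in each of the 3 fits without several mice, which were chosen after seeing the data. The number called higher, 10, was 12 with DESeq2, 14 with limma-voom and 6 with library size alone. With library size alone, 1530 genes were higher over all (1889 in the main fit). Over all tested genes, limma-voom called 3911 higher and 4180 lower (further pathway genes lower 14). DESeq2 called 2198 higher and 2434 lower of the 19717 genes that it tested. The fit without Control replicates 1 and 9 and GWI replicate 5 called 2897 and 3073. With the tissue covariate, 6 members were higher and 4 lower, against 1437 genes higher and 2054 lower over all, and 14 further pathway genes were higher and 12 lower. Leaving out 1 mouse gave 5 to 11 members higher, 0 to 2 lower and 1 to 2 higher past the threshold of the study, 1472 to 2523 genes higher and 1309 to 2295 lower, and 21 to 31 further pathway genes higher and 3 to 11 lower. The cause of these differences was not tested.

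The replicate numbers are shared by 8 pairs of mice. The correlation of their deviations from the group means was -0.49 to 0.11 (median -0.08), 1 pair was over 0.1, and in 0 pairs was each mouse the best match of the other. No pairing was seen in these values. Whether a shared number carries any shared handling was not tested. With the replicate block, which also leaves out the unpaired Control replicate 9, 6 members were higher and 0 lower, against 1404 genes higher and 814 lower over all, and 2 further pathway genes were lower. Without Control replicate 9 and with no block, 11 members were higher and 1 lower, against 2272 and 2221 genes over all, and 6 further pathway genes were lower.

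Signs turned for these genes, of which edgeR called Acsl6 alone. With limma-voom the log2 fold change was -0.0085 for Acadl, -0.0013 for Acaa2, 0.040 for Decr1, 0.043 for Etfa and 0.066 for Ppargc1a. With the tissue covariate it was -0.021 for Acadl, -0.22 for Hadhb, -0.0097 for Hadh, 0.22 for Acot2 and 0.22 for Acsl6. With the replicate block and without Control replicate 9 it was 0.074 for Decr1, 0.061 for Etfa, 0.11 for Ppargc1a and 0.11 for Fabp1, and leaving out that mouse alone turned the sign of Decr1 (0.058), Etfa (0.058) and Ppargc1a (0.078), but not that of Fabp1 (-0.012). Without Control replicates 1 and 9 it was -0.045 for Acaa2, 0.0078 for Etfa, -0.0067 for Acot1 and 0.080 for Ppargc1a, and without GWI replicate 5 as well -0.00026 for Acaa2, 0.036 for Etfa and 0.076 for Ppargc1a. Leaving out 1 mouse gave -0.0025 to 0.11 for Acaa2, -0.17 to 0.058 for Decr1, -0.099 to 0.058 for Etfa, -0.099 to 0.065 for Acot2, -0.10 to 0.078 for Ppargc1a and -0.26 to 0.0073 for Fabp1. Depth limits the genes with few counts, of which Fabp1 had 2 to 21 per mouse.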
